A study of Mus musculus with 7 samples.

Results

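Mitochondrial ribosomal protein genes are the nuclear genes for the protein subunits of the mitochondrial ribosome, and they carry symbols that begin with Mrpl or Mrps followed by a number. They were taken by that name pattern, leaving out 4 symbols with the -ps ending, from the genes measured in CD150-negative mouse cells with and without a deletion in chromosome band 5G2. The pattern gave 78 of 16760 genes, of which 49 are named for the large subunit (Mrpl) and 29 for the small subunit (Mrps). All 78 protein-coding genes with this name pattern in the GENCODE M21 annotation were among the measured genes.

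The mitochondrial ribosome works in the mitochondrial matrix and translates the messages of the mitochondrial genome, which in mammals all encode core subunits of the respiratory chain or the ATP synthase. Its rRNAs are made inside the organelle, whereas its proteins are encoded in the nucleus, translated in the cytosol and imported. Blood stem cells are known to rely largely on glycolysis at rest and to use oxidative phosphorylation more as they differentiate.

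The 5G2del group held 3 libraries from cells with a deletion in band 5G2 of mouse chromosome 5, the band that corresponds to human 7q22. The WT group held 4 wild-type libraries. Both groups were CD150-negative cells labelled HSC (haematopoietic stem cell) of strain C57/B6, and the labels name no other allele or agent, no age and no treatment. How long the deletion is, where it ends, its zygosity and the number of animals are not stated in the labels. P-values here therefore rest on the spread among libraries, which may be technical in part. RNA was amplified before sequencing, and each value is a deposited log2 CPM, the log2 of the counts of a gene scaled to a size of its library. That size was not the plain sum of the counts: CPM summed to 920923, 920335 and 1156519 in 5G2del-A to 5G2del-C, against 936933, 914591, 1205990 and 982662 in WT-A to WT-D. Each library thus carries a scaling factor, and no source used here gives its method.

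Expected counts summed to between 38741356 and 47664360 in 5G2del libraries and between 37930174 and 52194274 in WT libraries. Cux1, a gene that lies in the distal part of chromosome 5, had 7.06, 6.80 and 8.01 log2 CPM in 5G2del-A to 5G2del-C, against 8.59, 8.44, 8.17 and 8.43 log2 CPM in WT-A to WT-D. The groups did not overlap, as in 2.78% of all genes with 5G2del lower, but 5G2del-C lay close to WT-C. Of 8 genes listed as early blood progenitor markers, Kit, Cd34, Flt3 and Ptprc were at 6.87 log2 CPM or above in every library of both groups. Ly6a ranged from 5.91 to 7.25 and Procr from 5.00 to 5.70 log2 CPM over all libraries. Cd48 had 4.01 to 4.94 log2 CPM in 5G2del libraries and 2.52 to 4.58 log2 CPM in WT libraries. Log2 fold changes were 0.99 for Cd48 and -0.41 for Ptprc, and 5 of the 8 genes had a higher mean in 5G2del. Slamf1, which encodes CD150, had 0.40 to 0.65 log2 CPM in 5G2del libraries and -2.22 to -0.26 log2 CPM in WT libraries. A list of neutrophil and monocyte lineage markers, 12 of 14 measured, separated libraries within each group: its mean was 7.32, 2.29 and 2.26 log2 CPM in 5G2del-A to 5G2del-C, against 5.96, 0.16, 1.52 and 0.29 log2 CPM in WT-A to WT-D. 5G2del-A and WT-A thus carried most of that signal, in summed CPM 4852 and 1646, while the other 5 libraries held 295 to 407. Mpo, Elane and Prtn3, primary granule genes most active in immature granulocyte precursors, made up 67.6% of that sum in 5G2del-A and 68.0% in WT-A. The other 9 genes, most of them of later stages, averaged 6.57, 1.64 and 1.38 log2 CPM in 5G2del-A to 5G2del-C, against 5.30, -1.20, 0.71 and -0.84 log2 CPM in WT-A to WT-D. Libraries are named by letter because the deposited columns show their group but not their replicate number.

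Promoter sequences of 69 of the 78 genes were matched by symbol in the RefSeq table for build GRCm38.p6, each window running from 250 bases before to 50 bases after an annotated start. In the lines below, capitals mark the letters of 3 motifs known from nuclear genes for mitochondrial proteins, on either strand: CCGGAAG (the core bound by ETS factors such as GABP, also called NRF2), AAGATGGCG (a YY1 core) and GCGCATGCGC (an NRF1 core). Mrps12 and Mrpl18 are shown because they had the lowest unadjusted p among the small and the large subunit genes. Mrps18a holds both the ETS and the YY1 letters, and Mrpl32 is 1 of the 3 genes with the NRF1 letters. Mrps11 and Mrpl46 are a small and a large subunit gene on opposite strands that share 1 start region, and their windows share 141 bases. Mrps12 (chr7:28741772-28742071, minus strand), Mrpl18 (chr17:12916042-12916341, minus strand), Mrps18a (chr17:46110754-46111053, plus strand), Mrpl32 (chr13:14612988-14613287, minus strand), Mrps11 (chr7:78782881-78783180, plus strand) and Mrpl46 (chr7:78783040-78783339, minus strand) read as follows, 5′ to 3′.
Mrps12: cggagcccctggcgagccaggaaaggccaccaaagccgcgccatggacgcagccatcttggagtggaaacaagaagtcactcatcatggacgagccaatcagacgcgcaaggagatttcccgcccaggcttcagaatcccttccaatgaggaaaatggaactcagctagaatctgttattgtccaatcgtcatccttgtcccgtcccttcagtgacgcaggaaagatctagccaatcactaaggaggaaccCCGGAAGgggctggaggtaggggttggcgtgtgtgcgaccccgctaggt
Mrpl18: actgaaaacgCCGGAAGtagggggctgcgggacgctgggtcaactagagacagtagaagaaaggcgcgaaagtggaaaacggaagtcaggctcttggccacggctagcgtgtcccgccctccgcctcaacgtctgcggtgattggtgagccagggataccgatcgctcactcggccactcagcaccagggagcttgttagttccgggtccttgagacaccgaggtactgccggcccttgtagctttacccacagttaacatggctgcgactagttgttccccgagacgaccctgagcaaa
Mrps18a: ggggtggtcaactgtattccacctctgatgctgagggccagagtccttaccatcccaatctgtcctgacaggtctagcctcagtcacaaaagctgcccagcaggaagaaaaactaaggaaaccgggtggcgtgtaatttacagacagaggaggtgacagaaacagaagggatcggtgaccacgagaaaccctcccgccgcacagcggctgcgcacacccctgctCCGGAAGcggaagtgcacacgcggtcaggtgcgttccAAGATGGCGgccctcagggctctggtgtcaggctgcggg
Mrpl32: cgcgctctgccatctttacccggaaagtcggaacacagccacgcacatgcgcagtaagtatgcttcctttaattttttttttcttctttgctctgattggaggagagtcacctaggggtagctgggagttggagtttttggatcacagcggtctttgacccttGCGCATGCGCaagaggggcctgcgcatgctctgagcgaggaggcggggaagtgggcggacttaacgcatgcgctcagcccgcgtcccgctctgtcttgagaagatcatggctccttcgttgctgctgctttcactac
Mrps11: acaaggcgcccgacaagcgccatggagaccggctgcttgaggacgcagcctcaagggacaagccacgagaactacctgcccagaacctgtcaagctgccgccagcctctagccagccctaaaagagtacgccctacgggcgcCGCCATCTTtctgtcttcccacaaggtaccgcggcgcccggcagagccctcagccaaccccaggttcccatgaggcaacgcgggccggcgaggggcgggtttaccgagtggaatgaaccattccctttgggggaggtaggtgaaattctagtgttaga
Mrpl46: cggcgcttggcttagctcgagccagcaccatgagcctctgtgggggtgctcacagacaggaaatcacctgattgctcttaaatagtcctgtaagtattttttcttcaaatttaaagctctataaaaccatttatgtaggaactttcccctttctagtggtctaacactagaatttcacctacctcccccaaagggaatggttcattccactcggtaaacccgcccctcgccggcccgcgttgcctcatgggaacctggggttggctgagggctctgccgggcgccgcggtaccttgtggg

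The ETS letters stood in 26 of 75 windows of the 69 genes (34.7%), against 16.8% of windows of the measured genes and 8.86% of all windows of the RefSeq table. The YY1 letters stood in 8 windows (10.7%), against 2.81% of windows of the measured genes and 1.40% of all windows. The NRF1 letters were present in 3 windows (4.00%), all of large subunit genes, against 1.95% of windows of the measured genes and 0.971% of all windows. By contrast the CCAAT letters stood in 40.0% of member windows and 37.8% of windows of the measured genes, and the CACGTG letters in 9.33% and 9.83%. Relative to the annotated start, YY1 letters lay at a median position of 18.5 and ETS letters at a median of -17 bases. The ETS and YY1 letters can share the bases AAG, which they do not do in the printed windows. These are matches of letters and show no binding.

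Many of these genes also share their start region with another gene. Within 1000 bp of the annotated start, 33 of 78 members (42.3%) had the start of a protein-coding gene on the opposite strand, against 16.4% of 12856 measured protein-coding genes. Pairs that overlap are counted along with pairs that have a gap between their starts. The share was 24 of 49 among large subunit genes and 9 of 29 among small subunit genes. The starts of Mrps12 and Sars2, the mitochondrial seryl-tRNA synthetase gene, lay 172 bp apart. Those of Mrps11 and Mrpl46 lay 412 bp apart, and that pair overlaps, with 173 bp of shared exon. Over the 30 measured partners that are not members themselves, the median log2 fold change was 0.01, and over the members paired with them it was 0.09. Exons of 27 members overlap another measured gene, and strand is not stated for the counting, so reads of such pairs may be shared. The 78 genes lie on 17 chromosomes, with 11 of them on chromosome 11.

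No mitochondrial ribosomal protein gene changed between 5G2del and WT at an adjusted p under 0.05. The lowest adjusted p among the 78 was 0.989 by limma with Benjamini-Hochberg adjustment over all 16760 genes, of which 0% passed. Without adjustment, 2 members had a p under 0.05, Mrps12 and Mrpl18, both higher in 5G2del, against a background of 1.68% of genes higher and 2.24% lower, and 0 members were lower. By limma-voom the same 2 genes had a p under 0.05, and by limma without the variance trend there were 0. Log2 fold changes, 5G2del over WT, ran from -0.48 for Mrpl47 to 0.61 for Mrps12. In 3 members, Mrpl18, Mrpl44 and Mrps31, every 5G2del library was above every WT library, against 2.92% of all genes, and in 0 members every 5G2del library was below, against 2.78%.

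Most members nonetheless had a slightly higher mean in 5G2del: 60 of 78 (76.9%), against a background of 53.3% of all genes, with a median log2 fold change of 0.16 against 0.03 for all genes. The median standard error (SE) of a member's log2 fold change was 0.26, so the median difference was smaller than the error of a single gene. Which libraries entered moved this count. Without WT-A, 39 of 78 members were higher in 5G2del and the median was 0.01. Without both WT-A and 5G2del-A, a choice made after the data were seen, 53 of 78 were higher and the median was 0.15. Leaving out any other single library gave 52 to 67. With CPM computed without the mitochondrially encoded genes, 48 of 78 were higher, while the share over all genes was 43.9%. That CPM used the plain sum of the remaining counts, so it also dropped the scaling factor of each library. In bulk RNA, fewer cells of a type and less RNA per cell cannot be told apart.

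**Figure D1:**
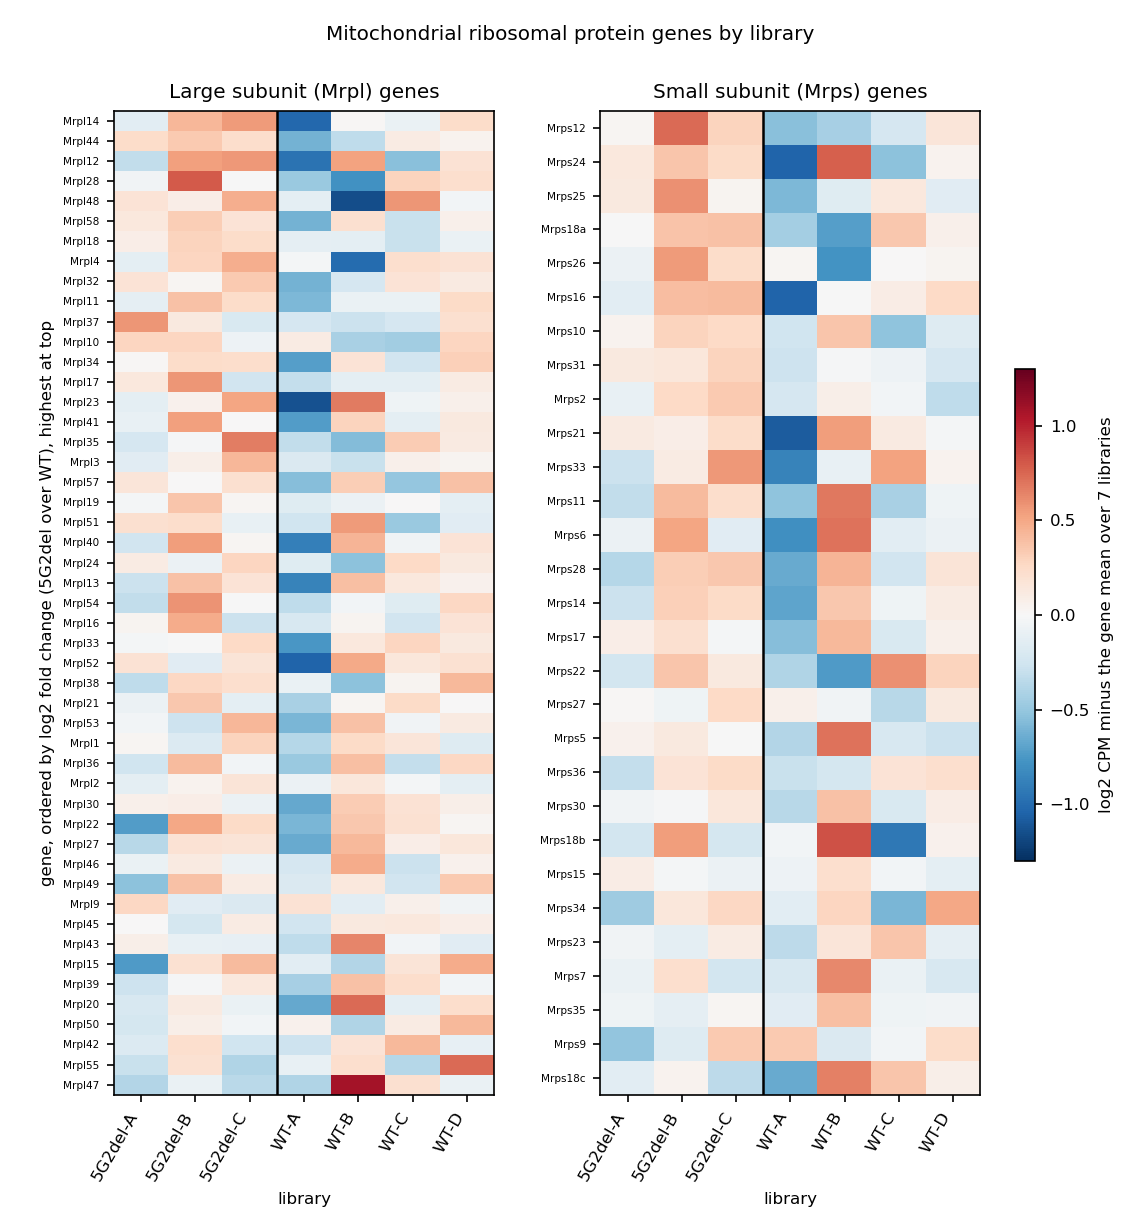
Level of each of the 78 genes in each library as log2 CPM minus the mean of that gene over the 7 libraries, with large subunit genes on the left and small subunit genes on the right, ordered by log2 fold change of 5G2del over WT. The WT-A column is mostly blue, and it holds the lowest value for 46 genes, while WT-B holds both deep red and deep blue cells.

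Large and small subunit genes were set side by side in each library. The mean over the 49 Mrpl genes was 4.12, 4.40 and 4.32 log2 CPM in 5G2del-A to 5G2del-C, against 3.78, 4.26, 4.19 and 4.33 log2 CPM in WT-A to WT-D. The mean over the 29 Mrps genes was 4.08, 4.41 and 4.34 log2 CPM in 5G2del-A to 5G2del-C, against 3.76, 4.36, 4.10 and 4.20 log2 CPM in WT-A to WT-D. In both subunits WT-A was the lowest library, 5G2del-A was the lowest of its group, and the groups overlapped. The Mrpl mean averaged 4.28 ± 0.15 log2 CPM in 5G2del (SD, n = 3) and 4.14 ± 0.25 log2 CPM in WT (SD, n = 4). The Mrps mean averaged 4.28 ± 0.18 log2 CPM in 5G2del and 4.11 ± 0.25 log2 CPM in WT. Both differences were smaller than the spread between WT libraries.

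Large and small subunit genes kept close to each other within each library in mean log2 CPM, which is not scaled for length. Mrpl minus Mrps was 0.04, -0.01 and -0.02 in 5G2del-A to 5G2del-C, against 0.02, -0.10, 0.09 and 0.13 in WT-A to WT-D, on the log2 scale. All 3 5G2del values lay inside the WT range, and WT-B was the library in which the small subunit genes were highest relative to the large. This difference averaged 0.00 ± 0.03 in 5G2del and 0.03 ± 0.10 in WT. Medians of log2 CPM per kb of the longest annotated transcript lay further apart in some libraries, in either direction. They were 3.24 over Mrpl and 3.54 over Mrps genes in WT-B, 3.27 and 2.98 in WT-C, and 3.04 and 3.08 in 5G2del-A. The median log2 fold change was 0.15 over Mrpl genes, with 37 of 49 higher in 5G2del, and 0.16 over Mrps genes, with 23 of 29 higher. Structures of the mammalian mitoribosome place the products of Mrps30 and Mrps18a in the large subunit, and the product of Mrps36 belongs to the 2-oxoglutarate dehydrogenase complex. With the genes assigned that way the medians were 0.15 and 0.17.

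**Figure D2:**
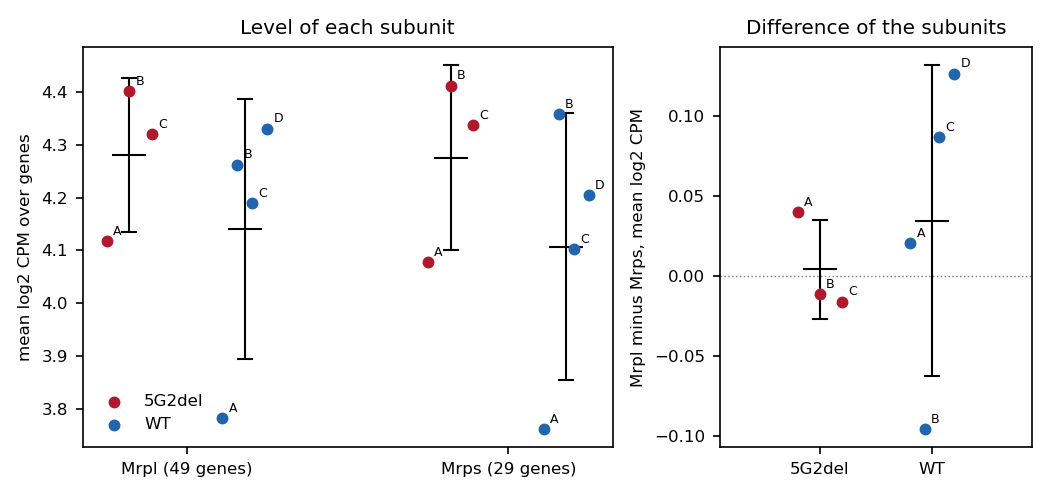
Left, mean log2 CPM over the 49 Mrpl and the 29 Mrps genes in each library, with the mean ± SD of each group as bars and the library letter beside each point; right, the Mrpl mean minus the Mrps mean. WT-A sits lowest for both subunits at 3.78 and 3.76, and the 3 5G2del differences of 0.04, -0.01 and -0.02 lie inside the WT range of -0.10 to 0.13.

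Single WT libraries stood apart for many members. WT-A gave the lowest value of all 7 libraries for 46 of 78 members (59.0%), 29 of 49 Mrpl and 17 of 29 Mrps genes, against 17.8% of genes with a mean log2 CPM over 2. It gave the highest value for 0 members. WT-B gave the highest value for 15 of 29 Mrps genes (51.7%) and 11 of 49 Mrpl genes (22.4%), against 24.3% of genes with a mean log2 CPM over 2, and the lowest for 12 members. WT-B also had the widest deviations from the median of the other libraries, with an SD of 0.53 over members and 0.63 over genes with a mean log2 CPM over 2. It was the library with the most genes at 0 counts, 1104 of 16760. 5G2del-B gave the highest value for 19 members and 5G2del-C for 18.

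The 2 libraries lowest in member mean within their groups, 5G2del-A at 4.10 and WT-A at 3.77 log2 CPM, were those with the high mean of the neutrophil and monocyte list. Up to 3 of the 12 markers were at 0 counts in a WT library, and 0 in the 5G2del libraries; in WT-B these were Lcn2, Ltf and Csf1r. Erythroid markers were also highest of their group in 5G2del-A and WT-A, and nearly as high in WT-B. Their mean was 2.69, 0.43 and -1.45 log2 CPM in 5G2del-A to 5G2del-C, against 3.42, 3.25, 0.15 and 0.83 log2 CPM in WT-A to WT-D. Up to 3 of these 10 markers were at 0 counts in a 5G2del library. The count of members higher in 5G2del with 5G2del-A and WT-A left out is given above. The part of myeloid or erythroid RNA in the member levels was not tested.

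The genes with the lowest unadjusted p of each subunit, 6 Mrpl and 6 Mrps, were picked by that p and are given with their values in every library. Among large subunit genes, Mrpl18 encodes the homologue of a bacterial large subunit protein that contacts rRNA of the central protuberance. It lies at chr17:12911349-12916345 (mm10, minus strand) and shares 141 bp of exon with Tcp1 on the opposite strand. Mrpl18 had 5.50, 5.70 and 5.65 log2 CPM in 5G2del-A to 5G2del-C, against 5.30, 5.28, 5.12 and 5.32 log2 CPM in WT-A to WT-D. All 3 5G2del libraries lay above all 4 WT libraries, and both groups were narrow. Its log2 fold change was 0.36 ± 0.16 (SE), with an unadjusted p of 0.041 and an adjusted p of 0.989 by limma. Tcp1, a cytosolic chaperonin subunit gene, differed by 0.01 on the log2 scale.

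Mrpl44 encodes a large subunit protein with a ribonuclease-like fold, and human variants in it are known from cardiomyopathy. Its values at chr1:79776018-79781445 (plus strand) were 3.95, 4.05 and 3.95 log2 CPM in 5G2del-A to 5G2del-C, against 3.10, 3.38, 3.82 and 3.76 log2 CPM in WT-A to WT-D. The 5G2del libraries lay close together and above all WT libraries, of which WT-A and WT-B were low. The log2 fold change was 0.47 ± 0.25 (SE), and its opposite-strand neighbour Wdfy1 went the other way, at -0.50.

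Mrpl14 encodes the homologue of a bacterial protein at the face that meets the small subunit. Its levels were 3.92, 4.49 and 4.61 log2 CPM in 5G2del-A to 5G2del-C, against 3.04, 4.08, 3.98 and 4.30 log2 CPM in WT-A to WT-D. WT-A stood below the rest, 5G2del-B and 5G2del-C were highest, and the groups overlapped. The log2 fold change was 0.49 ± 0.31 (SE), and without WT-A it was 0.22.

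Mrpl47, named for the homologue of a bacterial protein near the peptide exit, gave the largest difference in the other direction. It had 3.53, 3.82 and 3.56 log2 CPM in 5G2del-A to 5G2del-C, against 3.52, 4.99, 4.12 and 3.82 log2 CPM in WT-A to WT-D. WT-B stood highest, and WT-A was level with the 5G2del libraries, so the groups overlapped. The log2 fold change was -0.48 ± 0.32 (SE), and without WT-B it was -0.18. Exons of Mrpl47 overlap those of Actl6a and Ndufb5.

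Mrpl32, whose product is known in yeast and mouse to be matured by the m-AAA protease of the inner membrane, had 4.86, 4.70 and 5.01 log2 CPM in 5G2del-A to 5G2del-C, against 4.06, 4.46, 4.85 and 4.79 log2 CPM in WT-A to WT-D. WT-A and WT-B were the lowest libraries, and the 2 other WT libraries lay within the range of 5G2del. Its log2 fold change was 0.32 ± 0.23 (SE), and without WT-A it was 0.15. Mrpl58 (also called Ict1) encodes a peptidyl-tRNA hydrolase that is built into the large subunit and can release stalled chains. Mrpl58 gave 3.54, 3.72 and 3.58 log2 CPM in 5G2del-A to 5G2del-C, against 2.80, 3.61, 3.12 and 3.48 log2 CPM in WT-A to WT-D. WT-B fell among the 5G2del values and WT-A was lowest, and the log2 fold change was 0.37 ± 0.27 (SE), or 0.21 without WT-A.

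The stalk genes Mrpl10, Mrpl11 and Mrpl12 encode the part of the large subunit that recruits translation factors, and Mrpl12 is also known to bind the mitochondrial RNA polymerase. Mrpl12 averaged 5.05 ± 0.50 log2 CPM in 5G2del and 4.60 ± 0.68 log2 CPM in WT, a log2 fold change of 0.45 ± 0.35 (SE) that ran from 0.20 without WT-A to 0.74 without 5G2del-A. Mrpl11 averaged 4.42 ± 0.26 log2 CPM in 5G2del and 4.13 ± 0.35 log2 CPM in WT, and Mrpl10 averaged 4.03 ± 0.20 log2 CPM in 5G2del and 3.74 ± 0.37 log2 CPM in WT. Their log2 fold changes of 0.29 each came to 0.14 for Mrpl11 without WT-A and 0.18 for Mrpl10 without WT-C. All 3 stalk genes had a higher mean in 5G2del, none passed the test, and Mrpl12 was at 3.84 log2 CPM in WT-A against 5.32 log2 CPM in WT-B.

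**Figure D3:**
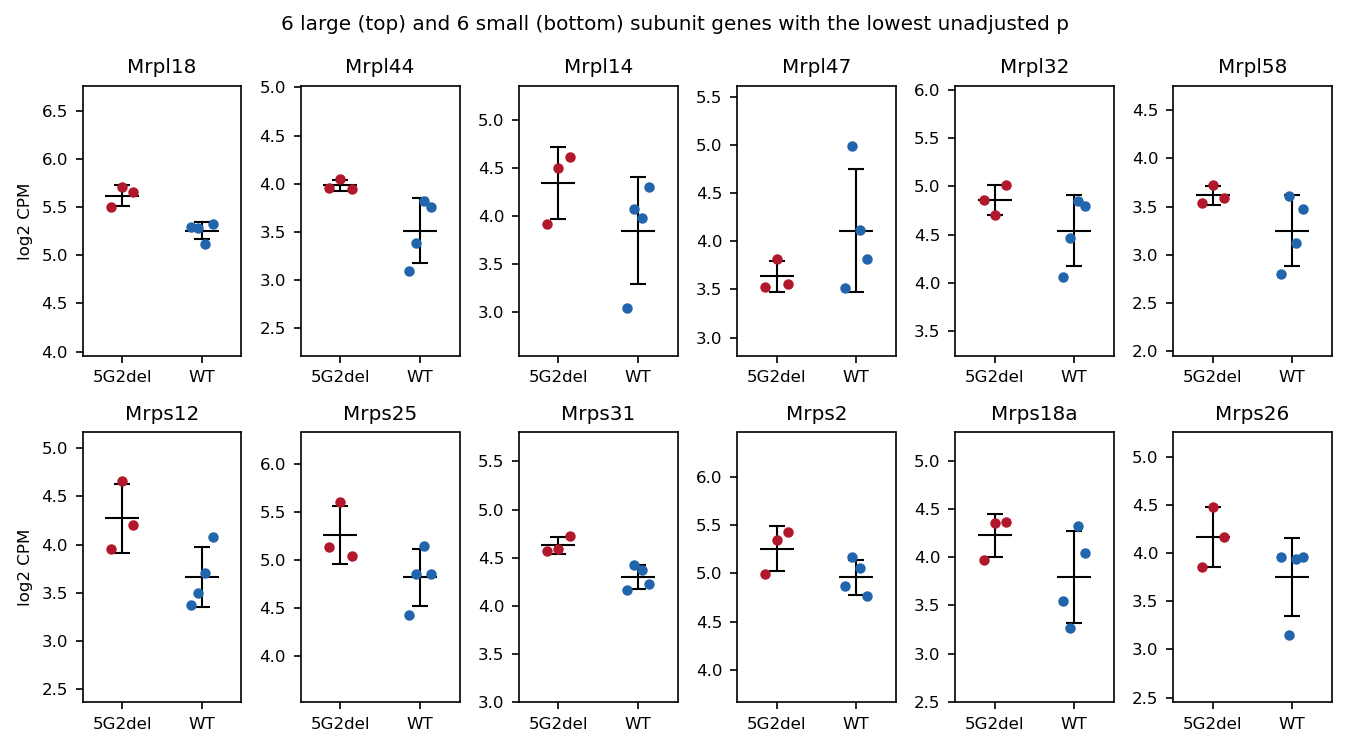
Log2 CPM in each library for the 6 Mrpl and the 6 Mrps genes with the lowest unadjusted p, with 5G2del libraries left of WT libraries and bars at the mean ± SD of each group (n = 3 and n = 4). Mrpl18, Mrpl44 and Mrps31 are the panels in which the groups do not overlap, and WT-B stands apart as the high point of Mrpl47 at 4.99 and the low point of Mrps26 at 3.15.

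Among small subunit genes, Mrps12 encodes the homologue of the bacterial protein at the decoding centre that is known for streptomycin resistance. At chr7:28739641-28741820 (minus strand) it had 3.95, 4.66 and 4.21 log2 CPM in 5G2del-A to 5G2del-C, against 3.38, 3.50, 3.70 and 4.08 log2 CPM in WT-A to WT-D. 5G2del-B was highest, WT-A and WT-B were lowest, and WT-D lay above 5G2del-A, so the groups overlapped. The log2 fold change was 0.61 ± 0.26 (SE), the largest of the members, with an unadjusted p of 0.038 and an adjusted p of 0.989 by limma. Without 5G2del-B it was 0.42. Sars2, which starts 172 bp away in the other direction, had a log2 fold change of 0.68.

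Mrps31 encodes a small subunit protein that bacterial ribosomes lack. It had 4.57, 4.59 and 4.73 log2 CPM in 5G2del-A to 5G2del-C, against 4.17, 4.43, 4.37 and 4.23 log2 CPM in WT-A to WT-D. The lowest 5G2del library lay above the highest WT library, with little spread in either group, and the log2 fold change was 0.33 ± 0.18 (SE). Mrps25, another protein of the mitochondrial small subunit, had 5.13, 5.60 and 5.04 log2 CPM in 5G2del-A to 5G2del-C, against 4.43, 4.85, 5.15 and 4.86 log2 CPM in WT-A to WT-D. WT-C lay between the 5G2del values, WT-A was lowest, and the log2 fold change was 0.44 ± 0.22 (SE), or 0.27 without 5G2del-B. Exons of Mrps25 overlap those of Nr2c2 over 4590 bp on the opposite strand.

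Mrps2 encodes the homologue of a bacterial small subunit protein of the same number. It had 4.99, 5.35 and 5.43 log2 CPM in 5G2del-A to 5G2del-C, against 4.87, 5.17, 5.05 and 4.76 log2 CPM in WT-A to WT-D. 5G2del-B and 5G2del-C were highest, and 5G2del-A lay among the WT libraries, with a log2 fold change of 0.30 ± 0.19 (SE). Mrps26, a protein known only from mitochondrial ribosomes, had 3.85, 4.48 and 4.17 log2 CPM in 5G2del-A to 5G2del-C, against 3.95, 3.15, 3.94 and 3.96 log2 CPM in WT-A to WT-D. WT-B stood far below the other 3 WT libraries, which were close together, and without it the log2 fold change of 0.42 ± 0.27 (SE) became 0.22.

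The 3 mammalian homologues of a single bacterial small subunit protein, Mrps18a, Mrps18b and Mrps18c, did not share a direction. Mrps18a had 3.97, 4.35 and 4.36 log2 CPM in 5G2del-A to 5G2del-C, against 3.54, 3.26, 4.33 and 4.04 log2 CPM in WT-A to WT-D. WT-A and WT-B were low, WT-C was level with the 5G2del libraries, and the log2 fold change was 0.43 ± 0.28 (SE), or 0.26 without WT-B. Mrps18b had 4.03, 4.81 and 4.04 log2 CPM in 5G2del-A to 5G2del-C, against 4.24, 5.09, 3.34 and 4.33 log2 CPM in WT-A to WT-D. It ranged more widely in WT than in 5G2del, with a log2 fold change of 0.05 ± 0.37 (SE) that was -0.26 without WT-C. Mrps18c averaged 2.63 ± 0.19 log2 CPM in 5G2del and 2.88 ± 0.56 log2 CPM in WT, a log2 fold change of -0.25 ± 0.35 (SE) that ran from -0.51 without WT-A to -0.07 without WT-B. RSEM divides reads that match more than 1 gene. Expected counts of Mrps18a were whole in every library and those of Mrps18b were not, while Mrps18c had 221.98 in 5G2del-C. Exons of Mrps18b overlap those of Gm16279 over 638 bp on the opposite strand. Which genes shared reads with Mrps18b was not tested. None of the 3 Mrps18 genes passed the test.

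Mrps16, Mrps22 and Mrps34 are small subunit genes in which human variants are known to impair the respiratory chain. Mrps16 averaged 4.05 ± 0.31 log2 CPM in 5G2del and 3.65 ± 0.59 log2 CPM in WT, with a log2 fold change of 0.40 ± 0.32 (SE) and its lowest value, 2.78 log2 CPM, in WT-A, without which the log2 fold change was 0.11. Mrps22 had 3.02, 3.62 and 3.39 log2 CPM in 5G2del-A to 5G2del-C, against 2.87, 2.52, 3.85 and 3.56 log2 CPM in WT-A to WT-D. Its WT libraries ranged more widely than its 5G2del libraries, and its log2 fold change was 0.14 ± 0.35 (SE). Mrps34 averaged 3.21 ± 0.39 log2 CPM in 5G2del and 3.23 ± 0.48 log2 CPM in WT, a log2 fold change of -0.03 ± 0.33 (SE). Mrps30 averaged 4.61 ± 0.11 log2 CPM in 5G2del and 4.56 ± 0.33 log2 CPM in WT and Mrps36 averaged 4.03 ± 0.30 log2 CPM in 5G2del and 3.96 ± 0.27 log2 CPM in WT, differences within the spread of either group.

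The genes with the widest spread were Mrps18b, Mrpl23 and Mrps24, and those with the narrowest were Mrpl18, Mrps31 and Mrpl2, by residual SD. Mrps24, homologue of a bacterial protein at the mRNA entry, had 3.63, 3.85 and 3.73 log2 CPM in 5G2del-A to 5G2del-C, against 2.44, 4.27, 2.96 and 3.53 log2 CPM in WT-A to WT-D. WT-B was the highest library and WT-A the lowest, with the 5G2del libraries close together between them. The log2 fold change was 0.44 ± 0.38 (SE), and it was 0.15 without WT-A and 0.76 without WT-B. Mrpl23, homologue of a bacterial protein at the peptide exit, had 4.50, 4.68 and 5.13 log2 CPM in 5G2del-A to 5G2del-C, against 3.49, 5.29, 4.57 and 4.69 log2 CPM in WT-A to WT-D. WT-B was again highest and WT-A lowest, and the log2 fold change was 0.26 ± 0.36 (SE). Mrpl2, homologue of a bacterial protein beside the peptidyl transferase centre, had 3.67, 3.85 and 3.96 log2 CPM in 5G2del-A to 5G2del-C, against 3.72, 3.95, 3.77 and 3.68 log2 CPM in WT-A to WT-D. All 7 libraries lay within a narrow band with overlap of the groups, and the log2 fold change was 0.05 ± 0.21 (SE). The median residual SD was 0.37 over members, against 0.32 over genes with a mean log2 CPM over 2.

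Compared per length of the longest annotated transcript, members spanned a 20.7-fold range of level. The median level was 3.08 log2 CPM per kb over members, 3.10 over Mrpl genes and 3.06 over Mrps genes, against 9.36 over 81 cytosolic ribosomal protein genes and 4.38 over 94 nuclear oxidative phosphorylation genes. Mrpl34, homologue of a small bacterial large subunit protein, was highest with a level of 6.07 in 5G2del and 5.80 in WT log2 CPM per kb. Mrps21 had 5.56 in 5G2del and 5.30 in WT and Mrps33 had 5.51 in 5G2del and 5.27 in WT log2 CPM per kb. Mrps22 was lowest with 1.62 in 5G2del and 1.48 in WT, below Mrps26 with 2.07 in 5G2del and 1.65 in WT and Mrps35 with 1.97 in 5G2del and 2.05 in WT log2 CPM per kb. The order depends on the length used: with the union of exons, 1 of the 3 highest and 2 of the 3 lowest genes were still among the 3 highest or lowest. Mrps22 and Mrps35 then took ranks 76 and 78, and Mrps26 rank 67.

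Unscaled for length, Mrpl34 had 5.21, 5.43 and 5.42 log2 CPM in 5G2del-A to 5G2del-C, against 4.48, 5.38, 4.94 and 5.51 log2 CPM in WT-A to WT-D. WT-A was lowest and WT-D highest, so the groups overlapped. The log2 fold change was 0.28 ± 0.24 (SE), and without WT-A it was 0.08. Mrps21 had 4.49, 4.46 and 4.61 log2 CPM in 5G2del-A to 5G2del-C, against 3.29, 4.91, 4.49 and 4.35 log2 CPM in WT-A to WT-D. The 5G2del libraries were close together and lay between WT-A and WT-B, with a log2 fold change of 0.26 ± 0.33 (SE). Mrps33 had 5.24, 5.63 and 6.08 log2 CPM in 5G2del-A to 5G2del-C, against 4.65, 5.42, 6.05 and 5.56 log2 CPM in WT-A to WT-D. WT-A was lowest, 5G2del-C and WT-C were highest, and the log2 fold change was 0.23 ± 0.30 (SE). Mrps35 had 4.16, 4.10 and 4.25 log2 CPM in 5G2del-A to 5G2del-C, against 4.07, 4.61, 4.17 and 4.17 log2 CPM in WT-A to WT-D. Except for a higher WT-B its values were level, with a log2 fold change of -0.08 ± 0.21 (SE).

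Mouse chromosome 5, which carries the deletion, holds 4 members. Mrps17 (chr5:129715497-129722556) lies 6.53 Mb from Cux1, and Mrps18c, Mrpl1 and Mrpl33 lie 35.4, 40.0 and 105 Mb from it. Mrps17 had 5.16, 5.28 and 5.04 log2 CPM in 5G2del-A to 5G2del-C, against 4.52, 5.49, 4.87 and 5.13 log2 CPM in WT-A to WT-D. It was not lower in 5G2del, with a log2 fold change of 0.16 ± 0.23 (SE), and the groups overlapped. Mrpl33 averaged 4.89 ± 0.16 log2 CPM in 5G2del and 4.76 ± 0.48 log2 CPM in WT, a log2 fold change of 0.13 ± 0.25 (SE). Mrpl1, which builds the mobile stalk of the large subunit, averaged 3.90 ± 0.23 log2 CPM in 5G2del and 3.82 ± 0.29 log2 CPM in WT, a log2 fold change of 0.08 ± 0.24 (SE). The ends of the deletion are not given, and none of the 4 genes passed the test.

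Of the 46 members not described above one by one, 32 had a higher and 14 a lower mean in 5G2del, and 0 had an unadjusted p under 0.05. Their log2 fold changes ran from -0.29 for Mrpl55 to 0.44 for Mrpl28, with a median of 0.11. Mrps10 had the lowest unadjusted p of these 46, 0.153, with an adjusted p of 0.989 by limma.

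Subunits with other names did not share a direction. Dap3, a GTP-binding small subunit protein first known from cell death, had 4.42, 4.52 and 4.40 log2 CPM in 5G2del-A to 5G2del-C, against 4.91, 4.94, 4.99 and 4.16 log2 CPM in WT-A to WT-D. The 3 5G2del libraries lay below 3 of the 4 WT libraries and above WT-D, with a log2 fold change of -0.30 ± 0.23 (SE). Gadd45gip1, a large subunit protein, had a log2 fold change of 0.24 ± 0.29 (SE), and Aurkaip1, a small subunit protein, 0.02 ± 0.21 (SE). Of 5 such genes measured, 4 had a higher mean in 5G2del, against 53.3% of all genes, with a median of 0.08, and 0 passed the test. Without WT-A 2 of the 5 were higher with a median of -0.09, and without 5G2del-B 2 were, with a median of -0.06.

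Lists of genes that build or use the mitoribosome are given by the same counts. Of 32 genes for its assembly, for RNA modification (Nsun3 acts on a tRNA) and for matrix and inner membrane proteases (Lonp1, Clpp, Afg3l2 and Spg7), 19 had a higher mean in 5G2del, and their median log2 fold change was 0.07. Of 18 genes for translation factors and proteins that assist translation or membrane insertion, such as Lrpprc, Slirp, Letm1 and Oxa1l, 8 were higher, with a median of -0.07 and a mean of 0.02. Without WT-B that median was 0.05. Of 11 genes of mitochondrial transcription and DNA replication (Polg, Polg2, Twnk and Ssbp1), 5 were higher, with a median of -0.06, which was 0.03 without 5G2del-B and 0.02 without WT-C. Of 9 genes for regulators of nuclear mitochondrial genes, 6 were higher, with a median of 0.11, which was -0.03 without 5G2del-B. Without WT-A the medians of the 4 lists, in the same order, were 0.00, -0.03, -0.08 and 0.12, beside 0.01 for the ribosomal protein genes. None of these genes passed the test, and the lowest adjusted p of each list was 0.989 by limma.

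Other large families of nuclear genes also had mostly higher means in 5G2del, in counts that moved with the libraries. All 81 cytosolic ribosomal protein genes had a higher mean in 5G2del (median log2 fold change 0.25), and without WT-A 32 of 81 did, with a median of -0.04. Without both WT-A and 5G2del-A it was 62 of 81, with a median of 0.09, and without 5G2del-C it was 64 of 81, with a median of 0.08. Of 94 nuclear oxidative phosphorylation genes, assembly factors of the Nduf family included, 82 were higher, with a median of 0.20, and without WT-A 47 of 94 were. Without both WT-A and 5G2del-A it was 66 of 94, with a median of 0.12. In both lists 0 genes passed the test.

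The messages that the mitoribosome translates mostly had lower means in 5G2del. Of the 13 mitochondrially encoded protein genes, 2 had a higher and 11 a lower mean in 5G2del, and the median log2 fold change was -0.34. Without WT-A 0 of 13 were higher, and the median was -0.38. mt-Nd4l, a subunit of respiratory complex I, had 5.73, 5.46 and 5.10 log2 CPM in 5G2del-A to 5G2del-C, against 5.99, 5.96, 6.04 and 6.11 log2 CPM in WT-A to WT-D. mt-Nd2, of the same complex, had 7.37, 7.25 and 6.73 log2 CPM in 5G2del-A to 5G2del-C, against 7.42, 7.66, 7.73 and 8.04 log2 CPM in WT-A to WT-D. The groups did not overlap in either gene, with log2 fold changes of -0.59 ± 0.18 and -0.60 ± 0.20 (SE). In all, 5 of the 13 had an unadjusted p under 0.05 and were lower in 5G2del, against 2.24% of all genes, and 6 did not overlap, against 2.78%, but 0 passed the adjusted threshold (lowest adjusted p 0.989 by limma). The share of counts in the 2 mitochondrial rRNAs was 22.9% to 27.8% in 5G2del and 25.3% to 33.4% in WT.

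**Figure D4:**
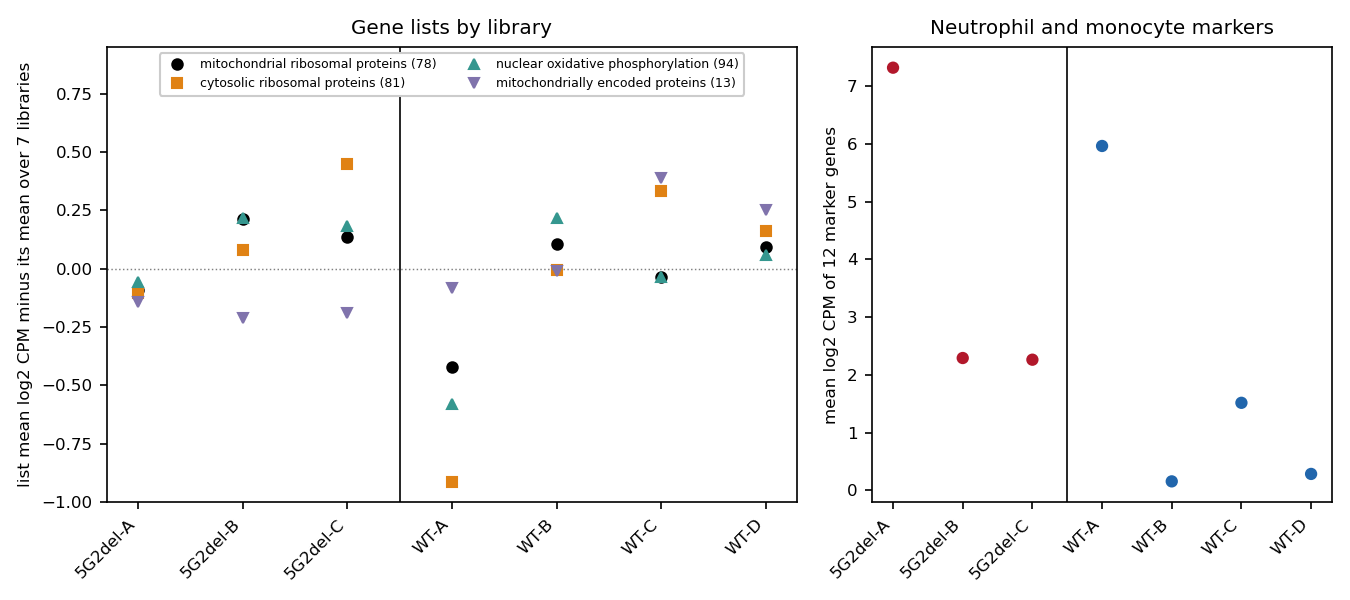
Left, mean log2 CPM of 4 gene lists in each library minus the mean over all 7 libraries, with 5G2del libraries left of the line and WT libraries right of it; right, mean log2 CPM of 12 neutrophil and monocyte marker genes. The 3 nuclear lists are lowest in WT-A, the mitochondrially encoded list is not, and the marker mean is high in 5G2del-A at 7.32 and WT-A at 5.96.

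Leaving out 1 library at a time moved the log2 fold change of 27 of the 32 named genes by over 1.5 times or turned its sign. The 5 that it did not were Mrpl18, Mrpl44, Mrps2, Mrps12 and Mrps31. WT-A did so for 21 genes and WT-B for 19, against 8 to 11 for each other library. The medians of both subunits were recomputed under each alternative. The Mrpl median stayed above 0 in all of them, from 0.03 without WT-A to 0.23 without 5G2del-A. The Mrps median ran from -0.01 without WT-A to 0.30 without WT-B. No member passed the adjusted threshold under any of these settings, and the lowest adjusted p of a member was 0.833, without WT-B, by limma.

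**Figure D5:**
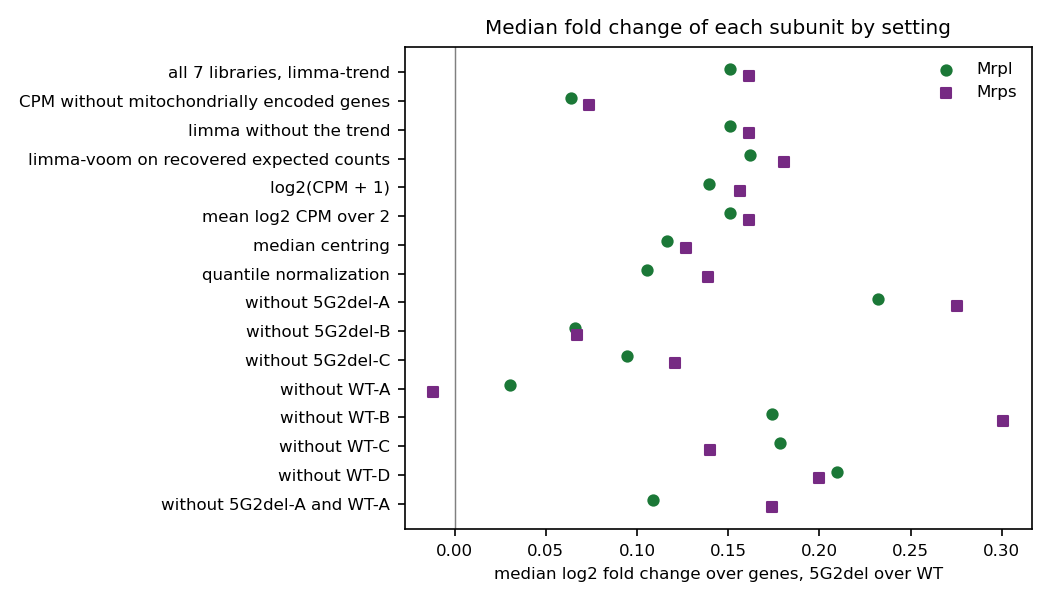
Median log2 fold change, 5G2del over WT, over the 49 Mrpl genes (circles) and the 29 Mrps genes (squares) in the fit to all 7 libraries and under each alternative. Without WT-A both medians lie next to 0, at 0.03 and -0.01, and under the scalings, models and filters tried they lie between 0.06 and 0.18.

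In the authors' deposited table, 60 of the 78 genes had a positive log2 fold change, with a median of 0.18, and 2 had a p-value under 0.05, against 3.73% of all genes. The lowest adjusted p-value of any gene in the authors' deposited table was 0.990.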

How the data were processed

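RNA-seq libraries of 3 5G2del and 4 WT samples were used. The submitters' processing notes list limma 3.50.3, RSEM 1.3.0 and STAR 2.7.9a with the builds mm10 and GRCh38, but no role for either build. Which annotation and which filter on low genes were used is not stated. The values are the authors' deposited log2 CPM with a scaling factor per library, with the authors' log2 fold changes, t scores and p-values beside them. A voom fit on expected counts recovered from these values (offset 0.5) differed from the authors' log2 fold changes or t scores by more than 1e-06 in 0 genes. Recovered counts served for depth and that fit, and 71.3% were whole within 0.01, so no count model was used.

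The groups were compared in R 4.3.3 by limma 3.58.1 with a variance trend, all 7 libraries and no covariate, with Benjamini-Hochberg adjustment over 16760 genes and a threshold of 0.05. The script was run on simulated independent normal values, where the check was on the size of the estimates. That run does not bear on calls in these libraries. A floor of 3 counts was 0.0538 to 0.0860 CPM; every member was above it, with expected counts of 125 to 2794 per library, and it covers counting error only. Positions and lengths came from GENCODE M21 (mm10), which matched all 78 members.

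Members and lists were chosen with earlier results of these data known. Genes named are the 6 of each subunit with the lowest unadjusted p, the 3 highest and lowest per kb, the 3 with the largest and smallest residual SD, those with a role stated and those on chromosome 5. Alternatives were other scalings, models, filters, pseudocounts and libraries left out. Cell type marker lists for neutrophils and monocytes, early progenitors, erythroid, B, T and NK, megakaryocyte, macrophage and dendritic, and stromal cells were summed per library.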

Additional observations from a re-analysis of the deposited data

Results flagged for a closer look

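Among 53 sets of 4 WT values examined, in 6 the gap between the highest or lowest library and its neighbour passed Dixon's limit for 4 values. The gap is taken as a share of the range. For independent sets of normal values, chance alone gives about 1 in 20. The 53 sets come from the same 4 libraries and are not independent, so their count cannot be judged against that rate. For Mrps26 the gap was 0.972 of the range, with WT-B low at 3.15 log2 CPM. For Mrpl33 it was 0.856, with WT-A low at 4.06 log2 CPM. The mean of the list of mitochondrial translation factors and assisting proteins gave 0.931, with WT-B high at 3.96 log2 CPM. The mean of the regulators of nuclear mitochondrial genes gave 0.864, with WT-A high at 4.76 log2 CPM. The mean of the early blood progenitor markers gave 0.879, with WT-B lowest. The mean of the macrophage and dendritic cell markers gave 0.845, with WT-B low at -1.73 log2 CPM.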

How the results depend on the processing

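Under 15 alternatives, 13 of the 32 named genes changed sign in at least 1, 0 passed an adjusted p of 0.05 in any, and the lowest adjusted p was 0.833 by limma. Leaving out 1 library at a time, the ranges of log2 fold change of the genes that changed sign were Mrpl1 -0.041 to 0.19, Mrpl2 -0.018 to 0.13, Mrpl23 -0.080 to 0.52, Mrpl33 -0.11 to 0.24, Mrps18b -0.26 to 0.33, Mrps21 -0.063 to 0.48, Mrps22 -0.083 to 0.36, Mrps30 -0.067 to 0.18, Mrps33 -0.023 to 0.44, Mrps34 -0.23 to 0.20, Mrps35 -0.15 to 0.035, Mrps36 -0.034 to 0.24 and Mrps17 -0.0049 to 0.32. Other single omissions that reversed a sign gave -0.035 for Mrpl1 without WT-A, -0.21 for Mrps18b without 5G2del-B, -0.014 and -0.013 for Mrps30 without 5G2del-C and without WT-C, 0.063 and 0.14 for Mrps34 without WT-B and without WT-D, and -0.00062 and -0.015 for Mrps36 without 5G2del-B and without WT-A. With CPM computed without mitochondrially encoded genes and without the scaling factors, the reversed log2 fold changes were -0.0087 for Mrpl1, -0.038 for Mrpl2, -0.041 for Mrps18b, -0.040 for Mrps30 and -0.017 for Mrps36. Without 5G2del-A and WT-A together, added after the data were seen, they were -0.025 for Mrpl1, -0.057 for Mrpl33, -0.0035 for Mrps17, -0.048 for Mrps21, -0.029 for Mrps30 and 0.15 for Mrps34.

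The number of members with a higher mean in 5G2del ran from 39 without WT-A to 67 without WT-B over the libraries left out, against 60 with all 7. Over all genes the number called ran from 0 to 1, with 1 call without 5G2del-C, and 1 call by limma without the trend; that call was no member. Under scalings, filters, models and pseudocounts the count of higher members was 48 to 60. Per kb of exon union the members' levels spanned 4.81 on the log2 scale, against 4.37 per kb of the longest transcript. The causes of these changes were not tested. No paired analysis was possible because the deposited columns carry no replicate number. With 3 and 4 libraries and a median SE of 0.26, log2 differences of the size seen in most members were not detectable. Member counts of 125 and above leave counting error small beside the spread between libraries.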

Other observations

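Genes beside the ribosomal proteins are given as values. Oxa1l, which inserts proteins made by the mitoribosome into the inner membrane, had 5.70, 5.63 and 5.96 log2 CPM in 5G2del-A to 5G2del-C, against 5.47, 5.15, 5.67 and 5.57 log2 CPM in WT-A to WT-D. Its log2 fold change was 0.30 ± 0.18 (SE), and 5G2del-B lay between WT-D and WT-C. Tufm, the elongation factor that brings tRNAs to the mitoribosome, had a log2 fold change of 0.35 ± 0.25 (SE). Gfm2, a recycling factor, had -0.38 ± 0.28 (SE). Nsun3, which modifies a mitochondrial tRNA, had 3.96, 3.93 and 4.61 log2 CPM in 5G2del-A to 5G2del-C, against 4.80, 4.70, 4.34 and 4.64 log2 CPM in WT-A to WT-D, and its log2 fold change was -0.46 ± 0.23 (SE). All of these had an adjusted p of 0.989 by limma.

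Of the factors whose motif letters were searched, Gabpa, the DNA-binding subunit of GABP, had a log2 fold change of -0.25 ± 0.17 (SE), Nrf1 had 0.33 ± 0.27 (SE) and Yy1 had 0.05 ± 0.17 (SE). Myc, a regulator of ribosome genes, was between 7.68 and 8.34 log2 CPM in all libraries, with a log2 fold change of -0.01 ± 0.19 (SE).

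Summed CPM of the other marker lists was as follows. Erythroid markers summed to 47.0 to 159 in 5G2del libraries and 84.4 to 348 in WT libraries. B lineage markers, 4 of 8 measured, summed to 25.9 to 203 in 5G2del and 10.5 to 28.1 in WT. Of these 4 genes, 3 had a higher mean in 5G2del, against 53.3% of all genes. Igkc had 7.51, 3.15 and 6.84 log2 CPM in 5G2del-A to 5G2del-C, and Ebf1 had a log2 fold change of -0.71. Megakaryocyte markers summed to 25.6 to 41.6 in 5G2del and 19.7 to 24.8 in WT, and all 5 genes had a higher mean in 5G2del. T and NK cell markers summed to 53.0 to 88.3 in 5G2del and 29.8 to 54.8 in WT, but only 2 of the 5 genes had a higher mean in 5G2del. Nkg7, the highest of the 5 genes, had a log2 fold change of 1.16, and Lck had -0.50. The mean log2 CPM of that list was lower in 5G2del, at 1.06 against 1.64 in WT. Macrophage and dendritic cell markers summed to 2.78 to 4.29 in 5G2del and 5.25 to 8.64 in WT, and stromal and endothelial markers to 18.1 to 21.8 in 5G2del and 7.17 to 20.8 in WT. The early progenitor markers summed to 1034 to 1259 in 5G2del and 999 to 1432 in WT. Their part in the member levels was not tested.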
